A study of Homo sapiens with 414 samples.

Results

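The guanylate-binding protein genes GBP1, GBP2, GBP3, GBP4 and GBP5 were followed in single LNCaP cells, a line derived from a human prostate cancer that responds to androgen. The 5 genes were chosen by name, through the Ensembl identifiers of the count table, and are 5 of its 36135 genes. The knockdown arm received an siRNA against SULT2B1 from IDT, and the control arm a non-targeting siRNA from Dharmacon. SULT2B1 encodes a sulfotransferase that adds sulfate to cholesterol and related sterols, and the series asks how it bears on cell death caused by TNF. Cells were taken 48 h after transfection and captured singly on Fluidigm C1 plates in 3 batches, each with both arms. The 401 cells analysed were 192 knockdown cells (66, 65 and 61 in batches 1, 2 and 3) and 209 control cells (76, 66 and 67). Each arm was represented by 1 siRNA, so target, siRNA sequence and supplier changed together and cannot be told apart.

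Guanylate-binding proteins are large GTPases, and most of the human family lies in a gene cluster on chromosome 1. They are known as interferon-inducible genes: interferon gamma acts in part through IRF1, and type I and type III interferons act through a complex that holds STAT2 and IRF9. The proteins assemble on membranes and on bacteria that have entered the cytosol. GBP1 starts the coat that forms on such bacteria, GBP2, GBP3 and GBP4 join it, and the coat serves as a platform for caspase-4, which is encoded by CASP4. GBP1, GBP2 and GBP5 carry a lipid tail added by prenylation enzymes. GBP5, together with GBP2, also limits the protease furin, which viruses use to mature their envelope proteins. LNCaP cells are known for weak expression of JAK1, a kinase of the interferon receptors.

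All 5 genes lie on the minus strand of chromosome 1 in the order GBP3, GBP1, GBP2, GBP4, GBP5 (GENCODE 29, GRCh38). GBP3 (ENSG00000117226) spans chr1:89006666-89022894, GBP1 (ENSG00000117228) chr1:89052319-89065360 and GBP2 (ENSG00000162645) chr1:89106132-89150456. GBP4 (ENSG00000162654) spans chr1:89181148-89198932 and GBP5 (ENSG00000154451) chr1:89258950-89272804. All are protein-coding. GBP2 overlaps GBP7 on the same strand over 18706 bases, and antisense RNA genes overlap GBP4 over 219 bases and GBP5 over 9173 bases. The strand setting of the counting is not given in the sources used here, so reads of GBP4 and GBP5 cannot be told apart from those of their antisense partners where they overlap. GBP1 shared 93 of the 2986 stretches of 50 bases in its longest transcript (3.11%) with GBP3, and 321 (10.8%) with the pseudogene GBP1P1, while GBP5 shared none with any of the 7 relatives compared. Some reads of GBP1, GBP3 and GBP1P1 are therefore uncertain in their assignment.

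The start regions of GBP1, GBP3 and GBP4 are shown because interferon-stimulated genes are known for a response element near their start, and these 3 of the 5 genes matched the RefSeq promoter table (GRCh38.p14, minus strand, windows of 300 bases, most of it before the start). Capitals mark the match to the core of the interferon-stimulated response element, spelled GAAA, any 2 bases, GAAA, which all 3 carry on the other strand and which therefore reads TTTC, 2 bases, TTTC here. The windows are chr1:89065159-89065458 for GBP1, chr1:89022817-89023116 for GBP3 and chr1:89198893-89199192 for GBP4.
GBP1: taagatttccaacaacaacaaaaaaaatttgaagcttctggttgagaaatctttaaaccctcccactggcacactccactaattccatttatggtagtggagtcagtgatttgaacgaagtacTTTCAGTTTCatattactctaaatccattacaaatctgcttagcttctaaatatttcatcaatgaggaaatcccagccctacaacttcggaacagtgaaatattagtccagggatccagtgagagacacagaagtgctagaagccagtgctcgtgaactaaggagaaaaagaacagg
GBP3: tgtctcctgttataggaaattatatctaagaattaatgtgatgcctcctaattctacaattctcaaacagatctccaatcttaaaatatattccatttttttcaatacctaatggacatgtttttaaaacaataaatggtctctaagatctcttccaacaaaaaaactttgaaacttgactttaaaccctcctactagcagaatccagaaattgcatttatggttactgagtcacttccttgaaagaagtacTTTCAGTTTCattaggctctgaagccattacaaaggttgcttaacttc
GBP4: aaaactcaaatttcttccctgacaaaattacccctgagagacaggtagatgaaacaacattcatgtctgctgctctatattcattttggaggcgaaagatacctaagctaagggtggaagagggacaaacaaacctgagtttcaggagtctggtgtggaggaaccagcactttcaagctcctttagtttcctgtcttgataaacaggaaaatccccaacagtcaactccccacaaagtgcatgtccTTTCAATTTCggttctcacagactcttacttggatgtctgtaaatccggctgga

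With 0 at the first base of the RefSeq gene, the match lay at -127 to -118 in GBP1, at 2 to 11 in GBP3 and at -4 to 5 in GBP4. These positions depend on the annotation. GBP1 starts at 89065208 in RefSeq and at 89065360 in GENCODE 29, and GBP3 at 89022866 and 89022894. Of the 35116 promoters in the table, 1255 (3.57%) held this core on either strand. GBP1 and GBP3 carried identical letters at the match, and aligned on it without gaps their windows were equal at 68 of 98 bases (69.4%), from 50 bases before the match onwards. GBP4 was equal to GBP1 at 32 of 104 bases (30.8%) and to GBP3 at 35 of 98 (35.7%) in the same alignment. The window of GBP3 also held a match to a strict spelling of the gamma-activated site, TTCNNNGAA on either strand, at -15 to -7. This pattern was found in 7.66% of all promoters. Looser spellings of the site were not searched, so the windows of GBP1 and GBP4 are not shown to lack one. A core of the NF-kB site (GGGA, any 2 bases, TTCC, on either strand) was present in the window of GBP4, at -45 to -36, and in 1.61% of all promoters. Looser spellings of the NF-kB site were not searched either, so the windows of GBP1 and GBP3 are not shown to lack one. These matches describe letters and not binding.

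The targeted gene was low in the knockdown libraries. SULT2B1 had 13, 21 and 0 reads in knockdown batches 1, 2 and 3, against 152, 109 and 332 in control. In knockdown 4 of 192 cells had a SULT2B1 read, and in control 43 of 209. The log2 fold change was -4.13 with a standard error of 1.43, and edgeR's adjusted p was 0.268. For each arm in each batch, the reads of all cells were added up to 71630108 to 84359044 per library. The luminal markers of the prostate line were present in every library, with STEAP2, a metalloreductase, at 2563 to 4061 CPM in knockdown and 2866 to 4173 CPM in control. Among leukocyte markers, PTPRC, which marks blood cells, had 3 reads in all knockdown cells and 0 in all control cells, and CD14, a monocyte marker, had 0 in both arms. The 12 blood or endothelial markers in the table summed to 4.32 to 5.87 CPM in knockdown and 0.971 to 13.2 CPM in control, led by VWF, which encodes a clotting protein of endothelium. CSF1R, a receptor of monocytes and macrophages, had 24, 29 and 3 reads in knockdown batches 1, 2 and 3, against 4, 0 and 132 in control, from 6 knockdown and 5 control cells. NKG7, of cytotoxic lymphocytes, had 63 reads in 1 knockdown cell and 2 reads in 1 control cell. PTPRC and CD14 were named outside the rule, after their values were seen, and the part of such cells in the GBP result was not tested.

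GBP1 and GBP4 rose after transfection with the SULT2B1 siRNA, and GBP2, GBP3 and GBP5 had higher means in knockdown that did not pass the test. Levels are given in CPM, the counts of the summed libraries scaled to a common depth by edgeR's TMM. The test was edgeR's quasi-likelihood test on 3 knockdown and 3 control libraries, with Benjamini-Hochberg adjustment over 20326 genes and a threshold of 0.05. By this rule 2 of the 5 members were higher and none lower, where 0.394% of all genes tested were higher, 0.384% lower and 0.777% either. By DESeq2 4 of the 5 members were higher, all but GBP2, where 3.24% of all genes were. A limma fit on the mean log2(CPM + 1) of the cells, which gives every cell equal weight, called all 5 higher, where 3.76% of all genes were. With batch as a block in edgeR, 1 of the 5 was higher, GBP4, where 0.128% of all genes were. All 5 passed the filter on low counts, and their median log2 fold change was 4.74, against 0.01 for all genes tested.

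GBP1, which starts the coat on cytosolic bacteria, had 33.9, 85.7 and 34.3 CPM in knockdown batches 1, 2 and 3, against 1.29, 1.97 and 2.50 CPM in control. Every knockdown library lay above every control library, and batch 2 was the highest of the knockdown libraries. The log2 fold change was 4.74 with a standard error of 0.51 (adjusted p = 0.00995, edgeR). With batch as a block the adjusted p was 0.0535. Without control library 1, 2 or 3 it was 0.0668, 0.0637 or 0.0527, so the call needed all 3 control libraries. Without knockdown library 2 the log2 fold change was 4.15 and the call held.

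GBP4, a member of the bacterial coat, had 27.1, 4.65 and 9.16 CPM in knockdown, against 0.0136, 0 and 0 CPM in control. These were 2170, 344 and 785 reads in knockdown and 1, 0 and 0 in control, so the arms were separated by the near absence of control reads. The ratio of the arms was 3085, with an exact counting interval of 553 to 121886 that covers counting error only. The fitted log2 fold change was 11.13 with a standard error of 1.22 (adjusted p = 0.0114, edgeR), and the call held with batch as a block (0.0286). Without knockdown library 1 the log2 fold change was 10.14, and without control library 1, which holds the only control read, it was 13.05 with an adjusted p of 0.101. The adjusted p was 0.0637 without control library 2 and 0.0661 without control library 3.

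GBP3, a close relative of GBP1, had 41.5, 35.3 and 9.75 CPM in knockdown, against 7.85, 0.574 and 1.78 CPM in control. The arms did not overlap, but knockdown batch 3 was close to control batch 1. Without its highest cell, which held 484 of 835 GBP3 reads, knockdown batch 3 was at 4.14 CPM, below control batch 1. The log2 fold change was 3.08 with a standard error of 0.99, and the adjusted p of 0.230 (edgeR) missed the threshold.

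GBP5, the member that limits furin, had 3.70, 9.18 and 3.05 CPM in knockdown, against 0.231, 0 and 0.167 CPM in control. It did not overlap between the arms either. The log2 fold change was 5.30 with a standard error of 1.30 and an adjusted p of 0.133 (edgeR). In knockdown GBP5 rested on 296, 680 and 261 reads, and in control on 17, 0 and 13.

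GBP2, a coat member that is prenylated like GBP1, had 24.4, 30.8 and 10.9 CPM in knockdown, against 1.05, 11.4 and 7.27 CPM in control. Here the arms overlapped, since knockdown batch 3 was below control batch 2. The log2 fold change was 1.75 with a standard error of 0.79 and an adjusted p of 0.404 (edgeR). Of the 5 genes GBP2 had the highest mean level per kilobase of exon in control.

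The CPM of every knockdown library was above that of every control library for 4 of the 5 members, as it was for 10.5% of all genes tested. For GBP3 this rested on 1 cell of knockdown batch 3. Within batches 1, 2 and 3, GBP1 was higher in knockdown by 3.93, 4.87 and 3.34 on the log2(CPM + 1) scale. The same difference was 4.79, 2.50 and 3.35 for GBP4, and 1.93, 3.35 and 1.79 for GBP5. For GBP3 it was 2.26, 4.53 and 1.95. For GBP2 it was 3.63, 1.36 and 0.53, so that the direction was the same in all 3 batches for every member, with the smallest difference for GBP2 in batch 3.

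**Figure D1:**
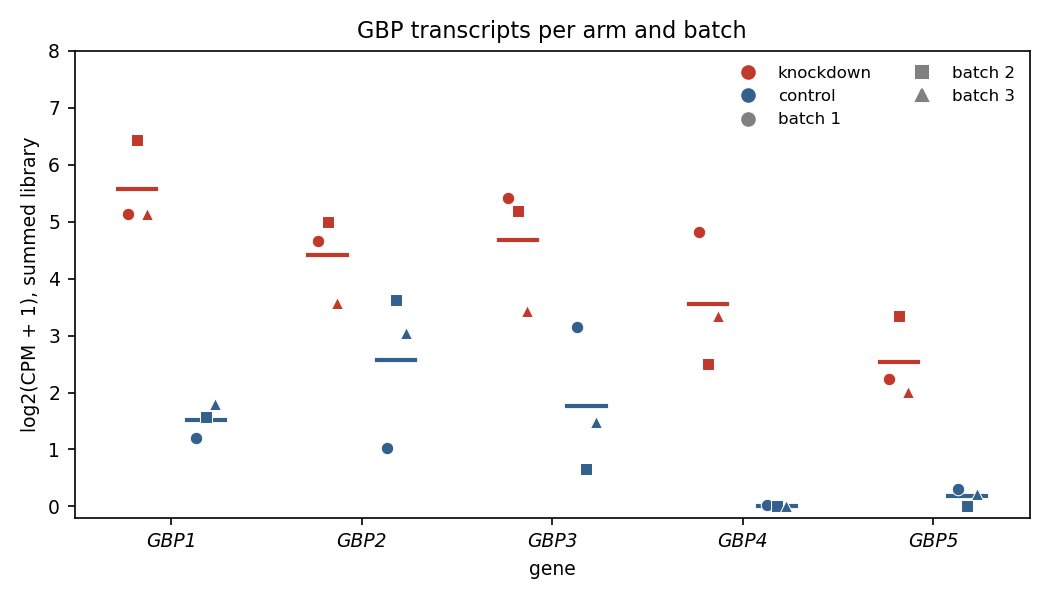
Level of each GBP gene in the summed libraries, as log2(CPM + 1) on the vertical axis, with a point for each of 3 knockdown (red) and 3 control (blue) libraries, symbols for batches and a bar for the mean. The knockdown libraries lie above the control libraries for GBP1, GBP3, GBP4 and GBP5, while GBP2 overlaps, with 10.9 CPM in knockdown batch 3 and 11.4 CPM in control batch 2.

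Per kilobase of merged exons, the order of the mean levels was GBP1, GBP3, GBP2, GBP4 and GBP5 in knockdown, and GBP2, GBP3, GBP1, GBP5 and GBP4 in control. Merged exons held 6276 bases for GBP2 and 4297 for GBP3, against 2220 and 3067 in their longest transcripts. The order may therefore depend on the length used. GBP1 averaged 10.3 ± 5.96 CPM per kilobase in knockdown and 0.385 ± 0.121 in control (SD, n = 3 each). GBP3 averaged 6.71 ± 3.91 CPM per kilobase in knockdown and 0.792 ± 0.908 in control. For GBP2 the means were 3.51 ± 1.62 CPM per kilobase in knockdown and 1.04 ± 0.827 in control. GBP4 averaged 2.23 ± 1.94 CPM per kilobase in knockdown and 0.00074 ± 0.0013 in control, and GBP5 0.652 ± 0.414 in knockdown and 0.016 ± 0.015 in control. Each gene in either order lay within the summed spread of its neighbour's mean, apart from GBP5 and GBP1 at the low end of the control order.

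The genes differed in how many cells held their reads. GBP1 was read in 88 of 192 knockdown cells, GBP2 and GBP3 in 62 each, GBP4 in 19 and GBP5 in 12. The share of cells with a read of GBP1 was 36.4%, 58.5% and 42.6% in knockdown batches 1, 2 and 3, against 9.21%, 10.6% and 2.99% in control. Of GBP2 it was 33.3%, 30.8% and 32.8% in knockdown, against 9.21%, 21.2% and 13.4% in control. The GBP2 share was thus even over the knockdown batches, although its level was lowest in batch 3.

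For GBP3 the share was 37.9%, 43.1% and 14.8% in knockdown, against 11.8%, 3.03% and 2.99% in control. The share of GBP3 was lowest in knockdown batch 3, where its CPM was lowest too. GBP4 was read in 8 of 66, 6 of 65 and 5 of 61 knockdown cells, against 1 of 76, 0 of 66 and 0 of 67 control cells. Taken as 3 cells of the total, a count of 0 allows a share of up to 4.55% in control batch 2 and 4.48% in control batch 3, and the exact two-sided intervals reach 5.44% and 5.36%. GBP5 was read in 5, 4 and 3 knockdown cells, against 1, 0 and 2 control cells.

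The shares averaged 45.8% ± 11.4 in knockdown and 7.60% ± 4.06 in control for GBP1 (SD, n = 3 each), and 32.3% ± 1.35 in knockdown and 14.6% ± 6.09 in control for GBP2. They averaged 31.9% ± 15.1 in knockdown and 5.95% ± 5.10 in control for GBP3, and 9.85% ± 2.03 in knockdown and 0.439% ± 0.760 in control for GBP4. GBP5 averaged 6.22% ± 1.33 in knockdown and 1.43% ± 1.496 in control. All 3 knockdown shares were above all 3 control shares for each of the 5 genes, which was so for 15.3% of all genes tested. The exact two-sided permutation test gave p = 0.1 for each gene, the smallest p that 3 against 3 allows, unadjusted over the 5 genes compared. Permuted within batches the exact p was 0.25, again the smallest possible.

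**Figure D2:**
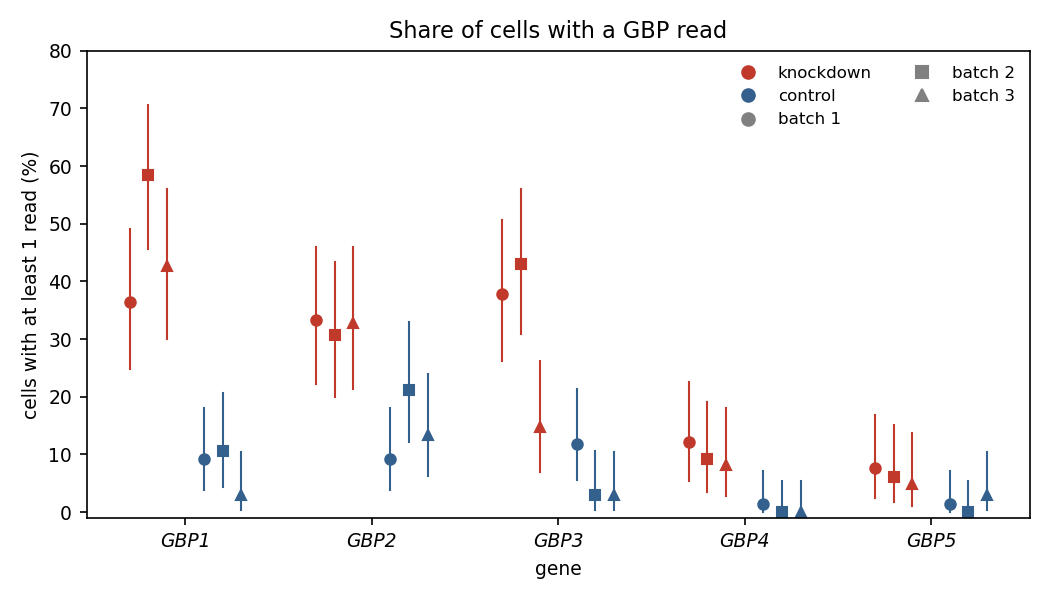
Percent of cells with at least 1 read of each GBP gene (vertical axis) for knockdown (red) and control (blue), with a symbol for each batch and exact 95% binomial intervals as lines, which cover counting error only. GBP1 ranges from 36.4% to 58.5% in knockdown and from 2.99% to 10.6% in control, and GBP4 and GBP5 stay at or below 12.1% in every batch.

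Depth was close between cells with and without a GBP read. Knockdown cells with a read of any member had a median of 1211765 reads, and those with none 1294587. Control cells with a read of any member had a median of 1127777 reads, and those with none 1101823. After each cell was thinned to 100000 reads the GBP1 share was 27.1% ± 7.88 in knockdown and 4.33% ± 1.57 in control, and the GBP4 share 7.23% ± 2.12 in knockdown and 0.439% ± 0.760 in control. With at least 5 reads required, GBP4 was found in 16 knockdown cells and 0 control cells. Cells with over 20% mitochondrial reads numbered 6, 0 and 2 in knockdown and 21, 8 and 6 in control. Without them the GBP1 log2 fold change was 4.62 (adjusted p = 0.00850) and that of GBP4 11.04 (adjusted p = 0.0113, edgeR).

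Among cells with a read, the level of each gene spread over 2 or more orders of magnitude in knockdown. GBP1 ranged from 0.510 to 2587 CPM over 88 knockdown cells, with a median of 14.3 CPM, against 0.874 to 287 CPM and a median of 19.4 CPM over 16 control cells. By batch the GBP1 medians were 13.8, 25.1 and 12.3 CPM in knockdown, against 7.93, 17.0 and 194 CPM in control, where batch 3 had 2 such cells. GBP3 had a median of 20.8 CPM over 62 knockdown cells and 20.1 CPM over 13 control cells. By batch the GBP3 medians were 19.2, 22.6 and 11.9 CPM in knockdown, against 13.7, 18.8 and 114 CPM in control, where batches 2 and 3 had 2 such cells each. Both genes were thus higher in knockdown in batches 1 and 2 and lower in batch 3 by this measure. GBP2 had a median of 15.0 CPM over 62 knockdown cells and 3.87 CPM over 30 control cells. GBP4 had a median of 51.5 CPM over 19 knockdown cells, and its single control cell had 0.628 CPM from 1 read. GBP5 had a median of 89.2 CPM over 12 knockdown cells and 7.14 CPM over 3 control cells. Each of these medians describes cells that share 3 batches, so no test was made between them.

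**Figure D3:**
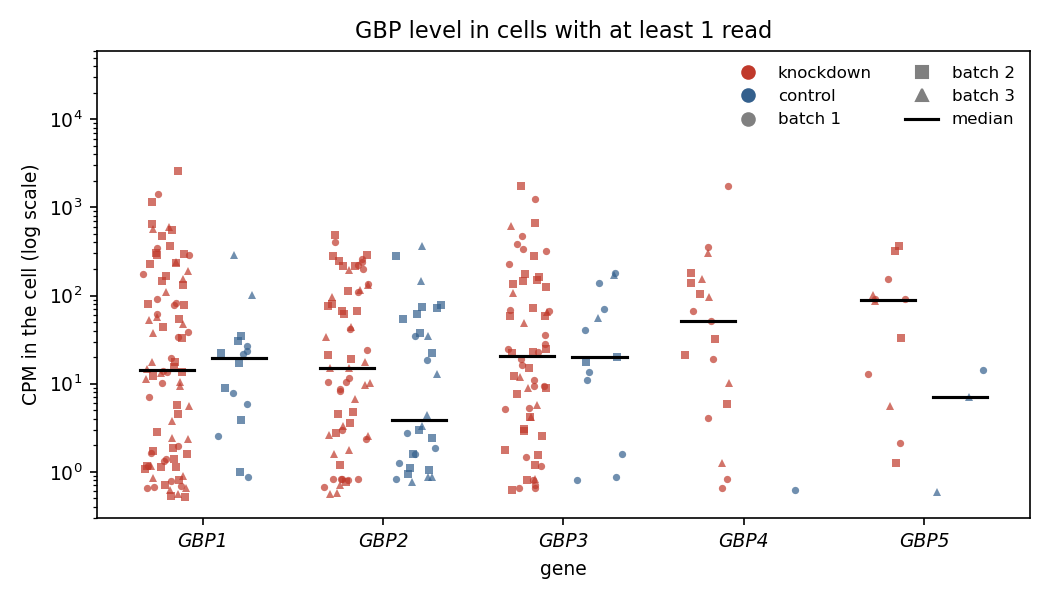
Level of each GBP gene in single cells that had at least 1 read of it, in CPM of the cell on a log axis, for knockdown (red) and control (blue), with symbols for batches and black bars for medians. The medians over all batches are 14.3 CPM in knockdown and 19.4 CPM in control for GBP1, and 20.8 and 20.1 CPM for GBP3, and the cells above 500 CPM are knockdown cells.

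Single cells carried much of the signal. In knockdown batch 1, a single cell held 1717 of the 2170 GBP4 reads (79.1%), and the same cell was the highest of that library for GBP1 with 1386 reads, for GBP3 with 1204 and for GBP5 with 149. Without this cell the GBP4 level of the library was 5.73 CPM instead of 27.1, and that of GBP1 16.8 CPM instead of 33.9. In knockdown batch 2, 1 cell was the highest for GBP1 (1194 reads), GBP3 (690 reads) and GBP5 (376 reads). In knockdown batch 3, 1 cell was the highest for GBP1 (816 reads) and GBP4 (408 reads). GBP4 without the highest cell of batches 2 and 3 was at 2.99 and 4.47 CPM. All of these levels stayed above the highest control library, at 2.50 CPM for GBP1 and 0.0136 CPM for GBP4. That was not so for GBP3 in batch 3, where 1 cell held 484 of 835 reads. Without this cell GBP3 was at 4.14 CPM, against 7.85 CPM in control batch 1. The highest GBP2 cells were other cells, and in batch 3 that cell, with 353 GBP2 reads, had no read of the other members.

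At least 1 member was read in 66.6% ± 6.71 of knockdown cells and 25.8% ± 4.72 of control cells (SD, n = 3 each). Reads of 2 or more members were found in 65 of 192 knockdown cells and 8 of 209 control cells. Reads of all 5 were found in 7 knockdown cells, 3, 3 and 1 in batches 1, 2 and 3. No control cell had more than 3 members.

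**Figure D4:**
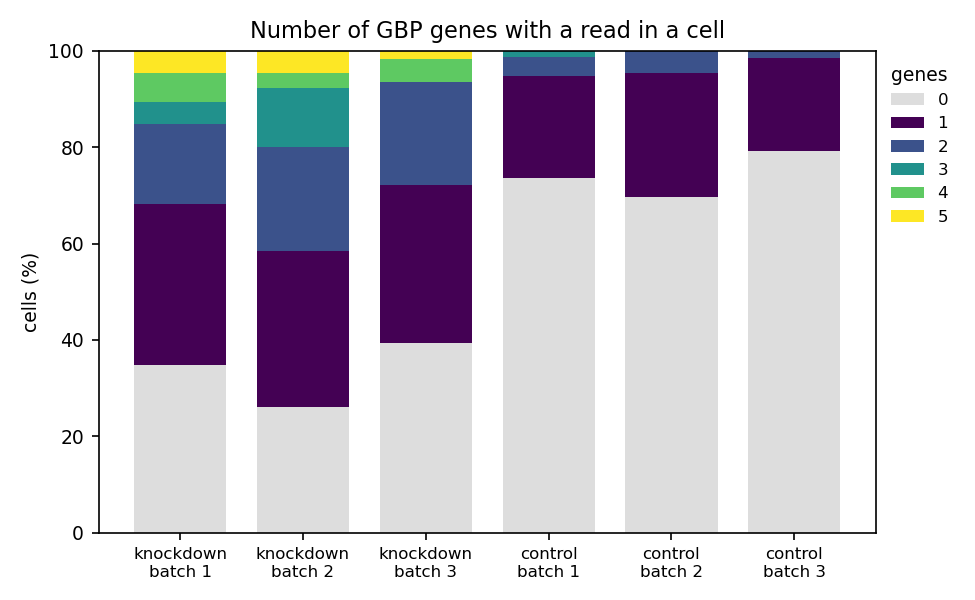
Percent of cells in each arm and batch (vertical axis, stacked to 100%) by how many of the 5 GBP genes had a read in the cell, from 0 (grey) to 5 (yellow). Cells with 4 or 5 genes appear in all 3 knockdown batches and in no control batch, and cells with none make up 26.2% to 39.3% in knockdown and 69.7% to 79.1% in control.

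The 16 knockdown cells with 4 or 5 members were 8.33% of the knockdown cells and held 7.22% of their reads over all genes. These cells held 98.4% of all GBP4 reads and 98.5% of all GBP5 reads of the arm, in part by the way they were picked, since 4 members in a cell require GBP4 or GBP5. They also held 70.9% of the GBP3 reads, 49.2% of the GBP1 reads and 39.0% of the GBP2 reads. Their median depth of 951400 reads was below the 1294590 of knockdown cells with no member.

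Of the 19 knockdown cells with GBP4, 15 had GBP1, 16 had GBP2, 15 had GBP3 and 9 had GBP5. Of the 12 with GBP5, 10 had GBP1, 10 had GBP2, 11 had GBP3 and 9 had GBP4. GBP4 and GBP5 reads were thus mostly found in cells that also held the more widely read members. The reverse did not hold, as 15 of the 88 cells with GBP1 (17.0%) had GBP4. GBP1 had a median of 80.9 CPM in the 15 cells that also had GBP4 and 11.3 CPM in the 73 that did not. The same medians were 113 and 10.5 CPM for GBP2, and 279 and 12.2 CPM for GBP3.

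Across knockdown cells, the correlation of log2(CPM + 1) within batches, averaged over the 3 batches, was highest for GBP4 with GBP5 (Pearson r 0.789) and next for GBP3 with GBP4 (0.575). It was 0.374 for GBP1 with GBP3 and 0.338 for GBP1 with GBP2. These values describe 61 to 66 cells a batch, in which most cells are at 0 for GBP4 and GBP5 and all genes of a cell share its depth.

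The genes whose pattern over knockdown cells was most like that of a member were sought among 14559 genes read in at least 10% of these cells. This cut left out GBP4, GBP5 and GBP1P1 as candidates, read in 9.90%, 6.25% and 8.33% of the cells. Without the cut, GBP4 would have entered the lists of GBP1 (mean r 0.491), GBP2 (0.428) and GBP3 (0.575). GBP5 would have entered that of GBP4 (0.789) but not those of GBP1, GBP2 and GBP3. For GBP4 they were OAS2, an interferon-inducible sensor of double-stranded RNA (mean r 0.886, range over batches 0.832 to 0.944), the chemokines CXCL11 (0.819), CCL5 (0.769) and CXCL10 (0.727), and RAET1L (0.766), a stress ligand for natural killer cells. For GBP3 they were HIP1R (0.548), an adaptor of clathrin and actin, the antiviral RSAD2 (0.511), RAET1L (0.499), OAS2 (0.492) and CCL5 (0.492). For GBP1 they were MXD1 (0.507), a transcription factor that opposes MYC, CDKN2B (0.470), an inhibitor of the cell cycle, CXCL11 (0.462), CCL5 (0.443) and RAET1L (0.441). For GBP2 they were CXCL11 (0.436), RAET1L (0.403), CCL5 (0.399), HIP1R (0.398) and GBP3 (0.368), and its values with the first 3 were lowest in batch 3, at 0.221, 0.105 and 0.130. GBP5 was read in 12 cells, under the minimum of 15 set for this search. RAET1L and CCL5 stood in all 4 lists of 5.

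Interferon transcripts were read in a minority of the cells as well. A read of IFNB1, IFNL1, IFNL2 or IFNL3, which encode interferon beta and the lambda interferons, was found in 54 of 192 knockdown cells and 2 of 209 control cells. GBP5 was read in 10 of these 54 knockdown cells (18.5%) and in 2 of the other 138 (1.45%). GBP4 was read in 11 of the 54 (20.4%) and in 8 of the 138 (5.80%). The 54 cells were spread unevenly, with 19, 8 and 27 in batches 1, 2 and 3. In each of the 3 batches the share of cells with GBP3, GBP4 or GBP5 was higher among cells with an interferon transcript. For GBP5 it was 4 of 19, 3 of 8 and 3 of 27 such cells, against 1 of 47, 1 of 57 and 0 of 34 among the rest. For GBP4 it was 3 of 19, 4 of 8 and 4 of 27, against 5 of 47, 2 of 57 and 1 of 34. For GBP3 it was 10 of 19, 7 of 8 and 6 of 27, against 15 of 47, 21 of 57 and 3 of 34. GBP1 did not go the same way in every batch, with 6 of 19, 6 of 8 and 14 of 27, against 18 of 47, 32 of 57 and 12 of 34. GBP2 was read in 6 of 19, 4 of 8 and 10 of 27 such cells, against 16 of 47, 16 of 57 and 10 of 34 of the rest, and was not higher in batch 1. Of the 16 cells with 4 or 5 members 10 had an interferon transcript (62.5%), against 14 of the 64 with none (21.9%). RSAD2 was read in 13 of those 16 cells and in 14 of the 64, and OAS2 in 12 and in 5. Both genes stood in the list of genes most like GBP3 over these same cells, and OAS2 led that of GBP4. The contrast for these genes is therefore no separate support. All counts given here are of cells that share batches, and whether secreted interferon reached other cells was not tested.

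**Figure D5:**
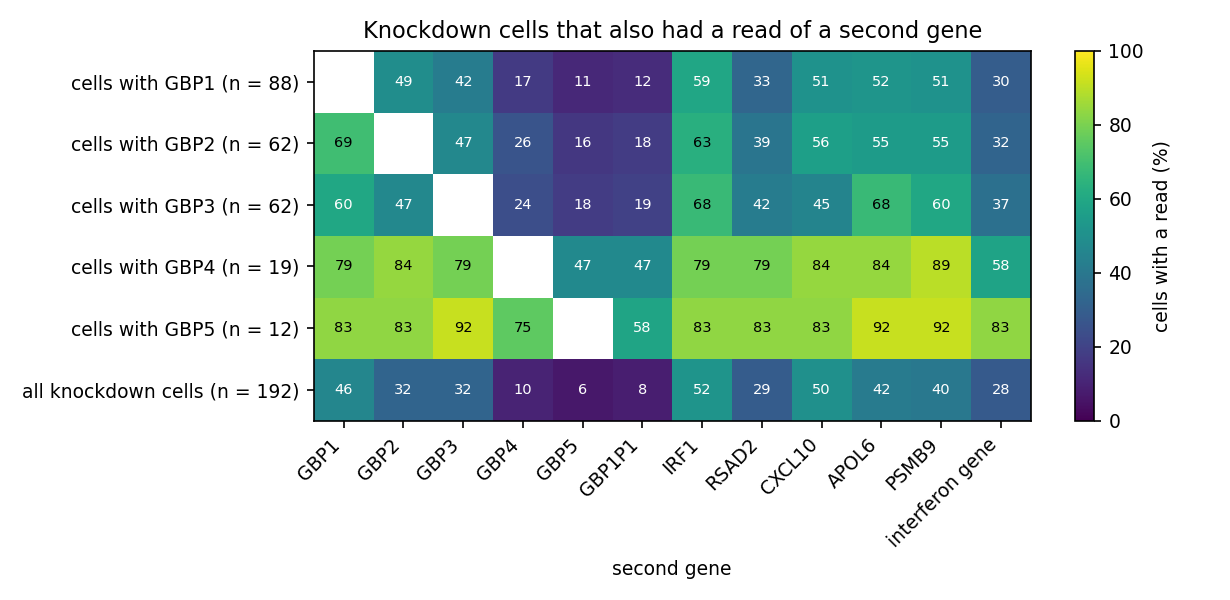
Percent of knockdown cells with a read of the gene named in the row that also had a read of the gene named in the column, on a colour scale from 0 to 100%, with all 192 knockdown cells in the bottom row for comparison. "Interferon gene" stands for any of IFNB1, IFNL1, IFNL2 and IFNL3, and the rows of GBP4 (19 cells) and GBP5 (12 cells) are higher than the bottom row in every column.

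Among the other genes of the family, GBP1P1, a transcribed pseudogene next to the cluster, rose too, as the 1 called of the 1 tested. Of all genes tested 0.394% were called higher. GBP6 and GBP7 were below the filter on low counts, and GBP1P1 passed it through its knockdown reads only. GBP1P1 had 2.63, 3.54 and 2.26 CPM in knockdown and 0 reads in each control library. Set against a floor of 3 reads over the control arm, it was at least 208-fold higher (adjusted p = 0.0353, edgeR, and 0.194 with batch as a block). That floor covers counting error only. Of the 16 knockdown cells with GBP1P1 reads, 11 had GBP1 and 9 had GBP4. GBP1P1 shares 19.0% of its 50-base stretches with GBP1, and reads moved between them by the counting were not tested. Of the other interferon-inducible GTPases none of 4 tested passed at the adjusted threshold, nor did any at an unadjusted p under 0.05, which 13.5% of all genes tested had, or by DESeq2. MX1, an antiviral GTPase, had 5.57 ± 2.81 CPM in knockdown and 4.72 ± 2.89 in control (SD, n = 3 each), and IRGQ, a relative of the immunity-related GTPases, 43.5 ± 12.7 in knockdown and 34.7 ± 11.9 in control. MX2, also antiviral, was at 0.782 to 3.67 CPM in knockdown and 0 to 5.36 in control, and IRGM, an autophagy regulator, at 0 to 0.756 in knockdown and 0 to 0.367 in control.

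Of the receptors and transducers through which interferons reach the GBP genes, 2 of 20 tested rose, where 0.394% of all genes did. None fell, and the median log2 fold change of the 20 was 0.39. IRF9, the DNA-binding partner of STAT2, had 7.14, 8.35 and 2.70 CPM in knockdown, against 0.122, 0.219 and 0.129 in control (log2 fold change 5.26, adjusted p = 0.0228, edgeR). With batch as a block its adjusted p was 0.0988, and none of the 20 passed, where 0.128% of all genes were higher. IRF1, the activator that interferon gamma induces, had 17.8, 24.9 and 20.7 CPM in knockdown, against 1.77, 0.041 and 0.451 in control, and its adjusted p was 0.108 (edgeR). STAT2 had 130 ± 43.3 CPM in knockdown and 103 ± 18.9 in control (adjusted p = 0.702). IRF1 was read in 15 of the 19 cells with GBP4 and in 51.6% of all knockdown cells.

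Genes that are known targets of interferon gamma rose in 7 of 23 tested cases, where 0.394% of all genes tested did, and none fell. With batch as a block 3 of them passed, where 0.128% of all genes were higher. These were CXCL11, APOL6 and B2M, the light chain of class I antigen presentation. CXCL11 and CXCL10 encode chemokines for T cells. CXCL11 had 51.1, 74.8 and 46.9 CPM in knockdown and 0 reads in each control library (adjusted p = 0.00251, and 0.0431 with the block), and CXCL10 had 612 ± 488 CPM in knockdown and 0.970 ± 1.09 in control (adjusted p = 0.0410, and 0.182 with the block). APOL6, of the apolipoprotein L family, had 27.3 ± 3.57 CPM in knockdown and 0.331 ± 0.173 in control (log2 fold change 6.36, adjusted p = 0.00263, and 0.0267 with the block). APOL2, of the same family, had 116 ± 17.0 CPM in knockdown and 23.9 ± 5.66 in control (log2 fold change 2.29, adjusted p = 0.00744, edgeR, and 0.0606 with the block). PSMB9, a subunit of the immunoproteasome, had 13.5 ± 2.99 CPM in knockdown and 0.897 ± 0.404 in control (log2 fold change 3.91, adjusted p = 0.0155, and 0.102 with the block).

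Of the coat's partners and the caspase-4 pathway, 3 of 8 tested genes rose, where 0.394% of all genes did. None fell, and the median log2 fold change of the 8 was 1.23. With batch as a block 1 of the 8 passed, ISG15, where 0.128% of all genes were higher. CASP4, the sensor of bacterial lipopolysaccharide that the coat recruits, had 65.4, 62.8 and 61.3 CPM in knockdown, against 25.1, 29.8 and 24.7 in control (log2 fold change 1.25, adjusted p = 0.0214, and 0.117 with batch as a block). Its libraries were close within each arm and far from the other arm. ISG15, a ubiquitin-like modifier, had 386 ± 66.5 CPM in knockdown and 26.8 ± 9.71 in control (log2 fold change 3.85, adjusted p = 0.00288, and 0.00971 with the block). SQSTM1, a receptor for selective autophagy, had 103 ± 5.22 CPM in knockdown and 44.6 ± 10.1 in control (log2 fold change 1.21, adjusted p = 0.0470, and 0.117 with the block). RNF213, a ubiquitin ligase for bacterial lipopolysaccharide, had 185, 182 and 157 CPM in knockdown and 132, 80.5 and 131 in control (adjusted p = 0.256, edgeR). GSDMD, the pore-forming substrate of caspase-4, was below the filter, with 1 knockdown cell and 4 control cells having a read, and is named outside the rule after its values were seen. The genes of 2 further members of this list, CASP5 and AIM2, were not analysed here.

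None of the 10 prenylation enzymes passed the test, and 1 had an unadjusted p under 0.05, near the 13.5% of all genes tested, while none passed by DESeq2. That 1 was FNTB, with 5.56 ± 2.87 CPM in knockdown and 14.7 ± 8.11 in control (adjusted p = 0.345, edgeR). It was lower in knockdown in all 3 batches. With every cell given equal weight (limma) it was called lower (adjusted p = 0.0302), where 559 of the 20326 genes were. FNTB is named outside the rule, after its values were seen. The median log2 fold change of the 10 enzymes was -0.0036. RABGGTB, a subunit of the enzyme that prenylates Rab proteins, had 289 ± 28.3 CPM in knockdown and 277 ± 19.1 in control. ZMPSTE24, a protease for prenylated proteins, had 204 ± 26.5 CPM in knockdown and 253 ± 26.1 in control. PGGT1B, the catalytic subunit of the type I enzyme that adds geranylgeranyl, had 163 ± 31.9 CPM in knockdown and 168 ± 18.6 in control. FDPS, which makes the farnesyl donor, had 158 ± 22.9 CPM in knockdown and 176 ± 15.0 in control.

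Of the genes that flank the cluster on chromosome 1, none was called by edgeR. None of the 7 tested neighbours passed, at an unadjusted p under 0.05, after adjustment or by DESeq2, and their median log2 fold change was -0.21. With 13.5% of all genes at an unadjusted p under 0.05, a count of 0 among 7 is near the background. With every cell given equal weight (limma), LRRC8B (-1.17, adjusted p = 0.00620) and LRRC8D (-1.07, adjusted p = 0.0184) were called lower. By that fit 559 of the 20326 genes were lower, and the other tested neighbours did not pass. LRRC8B and LRRC8D are named outside the rule, after their values were seen. GTF2B, a general transcription factor, had 115 ± 1.00 CPM in knockdown and 98.6 ± 15.5 in control. ZNF326, a zinc finger protein, had 73.5 ± 8.22 CPM in knockdown and 77.4 ± 14.9 in control. PKN2, a protein kinase, had 54.5 ± 12.5 CPM in knockdown and 80.4 ± 20.8 in control, and RBMXL1, an RNA-binding protein, 60.8 ± 12.9 in knockdown and 67.1 ± 11.7 in control.

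Feedback genes of NF-kB, a factor downstream of TNF, rose in 4 of 9 tested cases. None fell, and their median log2 fold change was 2.73. The share of all genes tested that rose was 0.394%. The part of NF-kB in the GBP result was not tested. NFKBIA, its inhibitor, had 117 ± 3.61 CPM in knockdown and 36.9 ± 4.77 in control (log2 fold change 1.67, adjusted p = 0.00573, and 0.0535 with the block). BIRC3, which blocks cell death downstream of the TNF receptor, had 211 ± 64.0 CPM in knockdown and 11.9 ± 4.45 in control (log2 fold change 4.15, adjusted p = 0.00600, and 0.0387 with the block). NFKBIZ, a nuclear cofactor of NF-kB, had 43.2 ± 15.5 CPM in knockdown and 4.51 ± 1.34 in control (adjusted p = 0.0127, and 0.0922 with the block). CXCL8, a chemokine for neutrophils, had 2.27, 28.4 and 2.57 CPM in knockdown, against 0.0136, 0 and 0 in control (adjusted p = 0.0471, edgeR, and 0.0939 with the block).

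Among the luminal markers 2 of 12 fell, where 0.384% of all genes tested did, and none rose, with a median log2 fold change of -0.14. KLK3, which encodes prostate-specific antigen, had 239, 362 and 240 CPM in knockdown and 732, 640 and 1023 in control (adjusted p = 0.0416, edgeR), and its relative KLK2 45.6 ± 8.57 in knockdown and 109 ± 16.9 in control (adjusted p = 0.0446). With batch as a block these were 0.154 and 0.0703. The 8 mesenchymal markers summed to 12.1 to 31.8 CPM in knockdown and 6.71 to 17.5 CPM in control, none of 3 tested passed, and 1 had an unadjusted p under 0.05. The part of these shifts in the GBP result was not tested.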

How the data were processed

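The authors deposited whole-number read counts per gene and cell, not normalized and without molecular identifiers. Per the labels' protocols, cells were captured singly on Fluidigm C1 plates, and sites with 0 or several cells, and cells stained as dead, were excluded under the microscope; no doublet caller was run. Per the submitters' processing notes, the tools were TopHat2 2.1.0, HTSeq 0.6.1, FastQC 0.11.3 and edgeR 3.2.2, on build GRCh38.p3. Neither the annotation nor the strand setting is given in the sources used here. Since PCR copies of a molecule are counted separately, intervals and floors cover counting error only. Cells had 169244 to 2353816 reads, with a median of 1150826.

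Of 36135 identifiers, 34891 were named through the gene name table and 257 through GENCODE 29. Of 414 samples, 401 single cells were used, and 4 columns of values were not used. Nothing in the labels says that batches were separate cultures, and p-values then measure only how these samples vary, which may be technical. For each arm in each batch, the counts of all cells were summed and tested by edgeR 4.0.16 (limma 3.58.1, R 4.3.3; quasi-likelihood, robust, TMM, filterByExpr with a minimum count of 10, no covariates), adjusted over 20326 genes. Batch is the labels' own word for the number that the arms share, so it pairs the libraries; deviations from the arm's mean correlated between libraries of the same batch at 0.0551, -0.00369 and -0.0019. Shares of cells have exact Clopper-Pearson intervals at 95% and exact permutation tests. DESeq2 1.42.0 was an alternative. Python 3.11.15, numpy 2.4.6, scipy 1.17.1 and pandas 2.3.3 were used.

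The members, the gene lists and the alternatives were chosen with earlier results of these data known. Named are the 5 members, SULT2B1, the called members of each list (up to 6, the largest change first), then those with the highest mean CPM up to 4 names in all, always STAT2, IRF9 and IRF1, and the 5 genes most like a member. Some genes are not reported here. The planned comparison of the proteins was not run, and protein sequences were not used here.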

Additional observations from a re-analysis of the deposited data

How the results depend on the processing

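Across the alternatives run, no log2 fold change and no difference in shares of the 5 members changed sign. With batch as a replicate block the GBP1 log2 fold change was 4.64 (adjusted p = 0.0535, edgeR), which ended its call, while the call of GBP4 held. By DESeq2 GBP3 (3.09) and GBP5 (5.32) passed as well, which made 4 of 5 members where 3.24% of genes tested were called higher. With every cell given equal weight (limma on the mean log2(CPM + 1)), all 5 passed, with differences of 1.72 for GBP1, 0.51 for GBP4, 0.87 for GBP2, 1.20 for GBP3 and 0.30 for GBP5, where 3.76% of genes were called higher. The 158 genes called in all became 38 with the block (0.128% called higher), 309 with no filter on low counts, 1442 by DESeq2 and 1324 with equal weight per cell. Leaving out each library in turn gave 46 to 69 genes called, log2 fold changes of 4.15 to 4.97 for GBP1 and 10.14 to 13.05 for GBP4, and the calls of both were lost without any of the 3 control libraries. The other log2 fold changes ranged over these fits from 1.23 to 2.40 for GBP2, 2.58 to 4.60 for GBP3 and 4.65 to 5.94 for GBP5, and none passed. The difference in shares, knockdown minus control, ranged over all alternatives from 22.8 to 42.9 percentage points for GBP1 and from 6.80 to 10.2 for GBP4. With 3 libraries an arm and a common dispersion of 0.497, a p that misses the threshold does not show that levels are alike. The causes of these shifts were not tested.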

Other observations

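GBP6 and GBP7, members of the family that were below the filter on low counts, had reads in knockdown cells and none in control cells. GBP6 had 1.62, 0 and 0.0233 CPM in knockdown from 2 cells, and GBP7 had 1.35, 0.081 and 0.070 CPM from 3 cells, so that batch 1 held most of both. Against a floor of 3 reads over the control arm, GBP6 was at least 41.1-fold and GBP7 at least 37.4-fold higher by reads. These bounds cover counting error only and rest on the 2 and 3 cells with reads. GBP7 overlaps GBP2 on the same strand and shares 19 stretches of 50 bases with GBP4.

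CXCL9, a chemokine that interferon gamma is known to induce, had 0, 0.257 and 35.4 CPM in knockdown batches 1, 2 and 3, against 0.558, 0.0137 and 0 in control, and was read in 0, 2 and 12 knockdown cells. With at least 5 reads required, 1 of the 61 knockdown cells of batch 3 held CXCL9. Nearly all of the 3033 CXCL9 reads of that library thus came from 1 cell. IFNG, the gene of interferon gamma, had no read in knockdown and was read in 1 control cell. JAK1 had 3.56, 9.52 and 6.70 CPM in knockdown, against 4.31, 8.05 and 21.4 in control, and was read in 33 knockdown cells and 47 control cells. JAK2, a kinase of the interferon gamma receptor, had 66.6 ± 4.19 CPM in knockdown and 20.4 ± 9.28 in control (SD, n = 3 each; adjusted p = 0.0802, edgeR). These 4 genes were chosen after their values were seen. Both control cells with an interferon transcript also had a read of a GBP gene, as did 40 of the 54 such knockdown cells.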
